A study of Mus musculus with 15 samples.

Results

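The genes described here are 8 genes of iron storage, transport and sensing in mouse brain. They were chosen by symbol as the rows of the expression table whose mouse Ensembl identifier maps to Fth1, Ftl1, Slc40a1, Tfrc, Slc11a1, Slc11a2, Ireb2 or Aco1, which gave 8 of 65964 entries. Transcripts were sequenced in 15 libraries of total RNA from the brain of C57BL/6 mice, in a series on lipid-laden reactive astrocytes in epilepsy, and each sample is labelled as coming from a KA-induced model of TLE. The 5 groups of 3 libraries were treated with KA and APOE (APOE_H and APOE_L), treated with KA (KA_H and KA_L) or untreated (CTRL_L). The label of the model is carried by the untreated libraries as well. The letters H and L are not defined, there was no untreated H group, and how APOE was altered or applied is not stated. Nor is it stated that the replicates of a group were different animals. The p-values therefore reflect the spread among these libraries alone, and that spread may be technical.

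Iron inside a cell is stored in ferritin, a hollow protein shell built from heavy subunits (Fth1), which oxidise iron, and light subunits (Ftl1), which help it to form a mineral core. Transferrin-bound iron enters through the transferrin receptor Tfrc, Slc11a2 (DMT1) carries ferrous iron out of endosomes and across membranes, Slc11a1 (NRAMP1) carries metal out of the phagosomes of macrophages, and Slc40a1 (ferroportin) is the iron exporter of the cell surface. Aco1 and Ireb2 encode the iron regulatory proteins. When iron is scarce these bind hairpins called iron-responsive elements (IREs), which blocks translation when the hairpin lies in the 5' UTR and protects the mRNA from decay when it lies in the 3' UTR. In the brain, ferritin is prominent in microglia and oligodendrocytes, and Slc11a1 in cells of the macrophage lineage.

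The hairpins are the sequence feature that ties the storage, export and uptake genes to the sensors, so they are shown for these genes. A motif of a C, 5 bases, the loop CAGTGN and 5 bases able to pair with the first 5 (G-T pairs allowed, last loop base not G) was searched on the sense strand of the GENCODE M21 protein-coding transcripts (GRCm38). It was present in 4 of the 8 genes and in 222 of 21877 protein-coding genes (1.01%). Capitals mark the loop, and each site is 29 bases, written 5' to 3' as DNA.
Fth1 5' UTR, chr19:9982732-9982760, + strand: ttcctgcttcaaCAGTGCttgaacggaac
Ftl1 5' UTR, chr7:45459779-45459807, - strand: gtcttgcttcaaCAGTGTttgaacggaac
Slc40a1 5' UTR, chr1:45925465-45925493, - strand: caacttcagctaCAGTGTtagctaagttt
Tfrc 3' UTR, chr16:32631219-32631247, + strand: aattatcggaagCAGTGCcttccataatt
Tfrc 3' UTR, chr16:32631598-32631626, + strand: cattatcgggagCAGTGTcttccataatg
Tfrc 3' UTR, chr16:32631663-32631691, + strand: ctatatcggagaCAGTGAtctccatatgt
Tfrc 3' UTR, chr16:32631710-32631738, + strand: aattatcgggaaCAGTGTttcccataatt
The ferritin pair share the paired arms of the hairpin, and 4 sites of this motif were found in Tfrc. This motif was not found in the transcripts of Slc11a1, Slc11a2, Ireb2 or Aco1. That does not show that those genes lack an IRE, because a hairpin without 5 unbroken pairs is missed by the search. A match is a description of the reference sequence, and binding was not measured.

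The labelled tissue was brain, and 12 of 12 microglia markers reached 1 TPM, the unit of transcript abundance used throughout, in every library, whereas 1 of 10 neuron markers and 5 of 10 astrocyte markers reached it in at least 3 of the 15. Microglia marker TPM summed to 23822 to 34034 in APOE_H, 14030 to 15515 in APOE_L, 17071 to 20965 in KA_H, 8395 to 14241 in KA_L and 9669 to 36307 in CTRL_L. The 10 choroid plexus markers summed to 38549 to 59241 in APOE_H, 126 to 297 in APOE_L, 33251 to 41315 in KA_H, 57.6 to 1286 in KA_L and 139 to 39298 in CTRL_L. Endothelial markers summed to 2408 to 4038 in APOE_H, 138 to 281 in APOE_L, 808 to 1452 in KA_H, 114 to 296 in KA_L and 563 to 995 in CTRL_L. Among these 8 markers Bsg reached 3920 TPM and Ly6c1 384 TPM, whereas Cldn5 was at 0 in 11 libraries and Tek in 13. The highest sums were thus mostly Bsg, and the sum alone does not show endothelial cells. The choroid plexus markers thus separated all H from all L libraries of the treated groups, and 2 of the 3 untreated libraries lay far above the third. Border macrophage and monocyte marker TPM summed to 209 to 540 in APOE_H and 108 to 424 in APOE_L. They summed to 258 to 655 in KA_H, 9.97 to 103 in KA_L and 1.16 to 105 in CTRL_L. Neutrophil markers summed to 0 to 1164 in APOE_H, 0 to 0.18 in APOE_L, 326 to 1291 in KA_H and 0 in KA_L and CTRL_L. Oligodendrocyte markers summed to 65.8 to 112 in APOE_H and 96.1 to 120 in APOE_L. They summed to 17.1 to 29.4 in KA_H, 15 to 70.8 in KA_L and 103 to 185 in CTRL_L. Entries at 1 TPM or more numbered 12801 to 15452 in APOE_H, 10161 to 11237 in APOE_L, 13192 to 13635 in KA_H, 9931 to 12085 in KA_L and 10706 to 11182 in CTRL_L. The unnamed assembled loci of the table took up 2.2 to 3.17% of all TPM in APOE_H, 10.6 to 11.3% in APOE_L, 4.51 to 6.78% in KA_H, 11.4 to 12.1% in KA_L and 6.73 to 8.94% in CTRL_L, which also separated the treated H from L libraries, and the part of this in the results was not tested. Apoe itself was listed at 6.49 to 144 TPM in APOE_H and 0 to 0.71 TPM in APOE_L, against 8767 to 16636 in KA_H, 1970 to 3262 in KA_L and 161 to 889 in CTRL_L. The depth behind each value is unknown, because TPM keeps none.

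Ferritin was the abundant end of the set. Both subunit genes and the transporter gene Slc11a2 were higher in H than in L libraries, in the APOE condition and averaged over both conditions. Across all tested entries (17505, those at 1 TPM or more in at least 3 libraries, which all 8 genes passed), 6.15% were called between APOE_H and APOE_L, and 3 of the 8 genes were called, all higher: Fth1, Ftl1 and Slc11a2. With H and L averaged over KA and APOE, 10.2% of entries were called and the same 3 of the 8 genes were higher. Of these, Slc11a2 passed the filter only through the H libraries, and its L values were mostly near 0. The median log2 fold change of the 8 genes was 1.1 between APOE_H and APOE_L, beside 0.54 over all entries, and 0.75 for H and L averaged, beside 0.32. Calls are adjusted p-values under 0.05 from limma on log2(TPM + 1), with Benjamini-Hochberg adjustment over all entries, and fold changes below are on that scale.

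None of the 8 genes was called by limma in the other 7 comparisons. Over all entries, 11.1% had an unadjusted p under 0.05 for KA_L with CTRL_L, 10.5% for KA_H with CTRL_L and 14.8% for KA_H with KA_L. That share was 8.63% for APOE_H with KA_H, 7.84% for APOE_L with KA_L and 8.23% for APOE with KA averaged. In the interaction it was 8.32%, and the unadjusted counts below are to be read beside these shares. KA_L with CTRL_L called 0.571% of entries and none of the 8 genes had an unadjusted p under 0.05. KA_H with CTRL_L called 0.377% of entries and 1 of the 8 genes was under 0.05 unadjusted. KA_H with KA_L called 1.49% of entries, and APOE_H with KA_H called 0.531%, with 1 gene of the 8 under 0.05 unadjusted in each. APOE_L with KA_L called 0.0457% of entries and APOE with KA averaged over both letters called 0.0171%, with 0 genes under 0.05 unadjusted in either. The interaction, which asks whether the H to L difference itself differs between APOE and KA, called 0.0457% of entries and had 2 of the 8 genes under 0.05 unadjusted. These were Fth1 (log2 difference 1.16, SE 0.42, adjusted p = 0.499) and Slc11a1 (2.45, SE 1.08, adjusted p = 0.56), so a larger difference in the APOE condition did not pass the test.

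**Figure D1:**
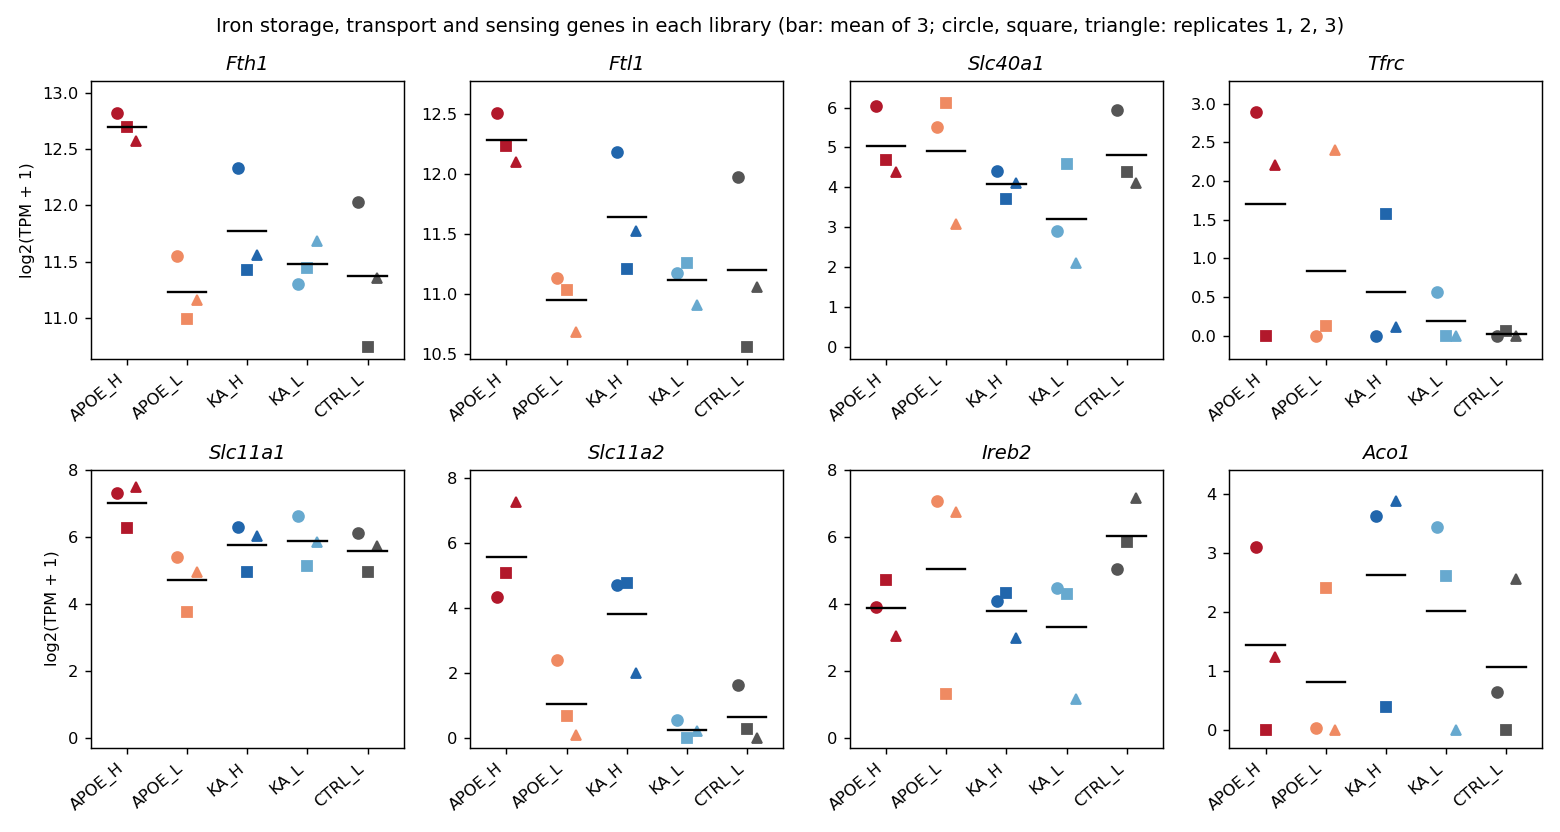
Expression of the 8 genes in each library as log2(TPM + 1), with APOE_H, APOE_L, KA_H, KA_L and CTRL_L along each horizontal axis, bars at the mean of the log2 values of 3 libraries, and vertical axes that differ between panels and do not start at 0 for Fth1 and Ftl1. The 3 APOE_H libraries lie above all APOE_L libraries for Fth1, Ftl1, Slc11a1 and Slc11a2, and Tfrc and Aco1 have libraries at 0. The share of all entries that separate in this way was not counted. Between these groups 21.9% of all entries had an unadjusted limma p under 0.05.

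Fth1, the heavy subunit, had 7211, 6609 and 6078 TPM in APOE_H, 2996, 2038 and 2293 TPM in APOE_L, 5158, 2746 and 3024 TPM in KA_H, 2532, 2785 and 3280 TPM in KA_L, and 4175, 1711 and 2617 TPM in CTRL_L. The 3 APOE_H values lay above every other library. Group means were 6633 ± 567 in APOE_H, 2442 ± 496 in APOE_L, 3643 ± 1320 in KA_H, 2865 ± 380 in KA_L and 2835 ± 1246 in CTRL_L (SD, n = 3 each). By level the order ran APOE_H, KA_H, KA_L, CTRL_L and APOE_L, and below APOE_H each group overlapped the next. Fth1 rose in APOE_H relative to APOE_L by a log2 fold change of 1.46 (SE 0.29, 95% interval 0.84 to 2.08, adjusted p = 0.00944), and the adjusted p stayed at 0.0234 to 0.0451 with any 1 of the 6 libraries left out. With no filter on low values the call was lost here (adjusted p = 0.093) and for H and L averaged (adjusted p = 0.125). Between KA_H and KA_L the log2 fold change was 0.3 (SE 0.29, adjusted p = 0.688), and averaged over both conditions it was 0.88 (SE 0.21, adjusted p = 0.0133). APOE_H set against KA_H gave 0.92 (SE 0.29, unadjusted p = 0.00619, adjusted p = 0.302), which did not pass although the groups did not overlap. KA_L differed from CTRL_L by 0.1 (adjusted p = 0.974).

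Ftl1, the light subunit, had 5831, 4814 and 4408 TPM in APOE_H, 2250, 2101 and 1648 TPM in APOE_L, 4667, 2377 and 2959 TPM in KA_H, 2316, 2456 and 1930 TPM in KA_L, and 4032, 1508 and 2137 TPM in CTRL_L. APOE_H lay above all APOE_L and CTRL_L libraries and overlapped KA_H through replicate 1 of KA_H. It averaged 5017 ± 733 in APOE_H, 2000 ± 314 in APOE_L, 3334 ± 1190 in KA_H, 2234 ± 272 in KA_L and 2559 ± 1314 in CTRL_L (SD, n = 3 each). By level the order ran APOE_H, KA_H, CTRL_L, KA_L and APOE_L, and each group overlapped the next. Ftl1 rose in APOE_H relative to APOE_L by 1.33 (SE 0.31, adjusted p = 0.0198) and in H relative to L averaged by 0.93 (SE 0.22, adjusted p = 0.014). The first of these calls was lost without any 1 of APOE_H replicates 1, 2 and 3 and APOE_L replicates 2 and 3, where the adjusted p was 0.0502 to 0.0809, and held without APOE_L replicate 1 (0.048). With no filter both calls were lost (adjusted p = 0.151 and 0.118). Between KA_H and KA_L the difference was 0.53 (SE 0.31, adjusted p = 0.469).

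**Figure D2:**
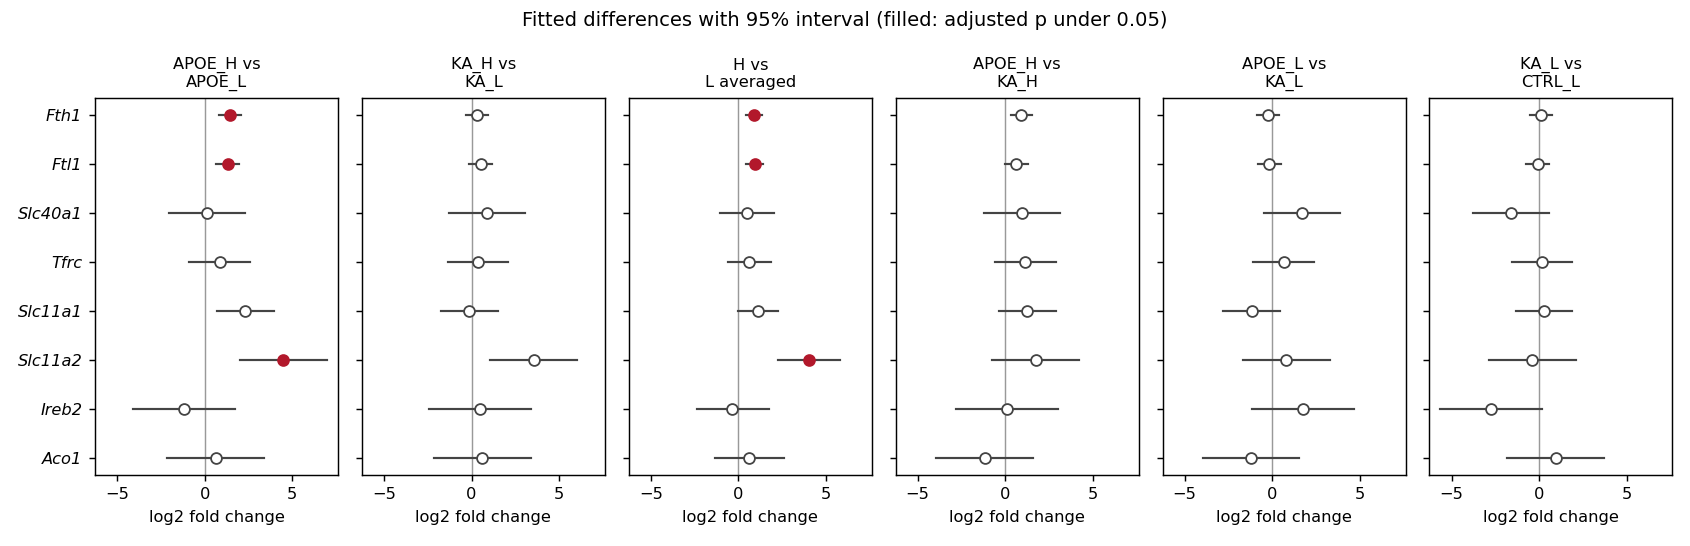
Fitted log2 fold changes of the 8 genes on the log2(TPM + 1) scale with 95% intervals, a panel per comparison, with filled points for adjusted p under 0.05. Fth1, Ftl1 and Slc11a2 are filled between APOE_H and APOE_L and for H and L averaged, and the intervals of Tfrc, Ireb2, Aco1 and Slc40a1 include 0 in these panels.

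Summed, the subunit genes made up 1.3, 1.14 and 1.05% of all TPM in APOE_H, 0.525, 0.414 and 0.394% in APOE_L libraries, 0.983, 0.512 and 0.598% in KA_H, 0.485, 0.524 and 0.521% in KA_L libraries, and 0.821, 0.322 and 0.475% in CTRL_L. Fth1 ranked 13th to 55th and Ftl1 18th to 65th by TPM among all entries of a library. The share was 0.931 ± 0.312% in H libraries and 0.477 ± 0.0589% in L libraries (SD, n = 6 each), a difference of 0.454 percentage points (exact two-sided permutation test, p = 0.00866). Within APOE the difference was 0.721 percentage points (exact permutation p = 0.1, the smallest that 3 against 3 can give). Within KA it was 0.188 percentage points (exact permutation p = 0.3), where replicate 1 of KA_H lay well above replicates 2 and 3.

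The ferritin share and the microglia, choroid plexus and endothelial marker sums were all higher in APOE_H than in APOE_L. They did not move together in every library. KA_L replicate 3 had the lowest microglia marker sum (8395 TPM) and a share of 0.521%. APOE_L replicate 2 had a higher sum (15515 TPM) and a share of 0.414%. In these bulk samples fewer cells of a type and less RNA per cell cannot be told apart. Ferritin TPM divided by the summed TPM of the microglia markers was 0.383, 0.479 and 0.434 in APOE_H, 0.374, 0.267 and 0.269 in APOE_L libraries, 0.5, 0.3 and 0.285 in KA_H, 0.43, 0.368 and 0.621 in KA_L libraries, and 0.226, 0.333 and 0.321 in CTRL_L. On this scale, chosen after seeing the data, H averaged 0.397 ± 0.0904 and L 0.388 ± 0.131 (SD, n = 6 each), with an exact permutation p of 0.89 for the difference. The conditions ran in opposite directions beneath this pooled value: APOE_H averaged 0.432 ± 0.0482 and APOE_L 0.303 ± 0.0613 without overlap, and KA_H averaged 0.362 ± 0.12 and KA_L 0.473 ± 0.132 with overlap (SD, n = 3 each). With the 10 choroid plexus markers taken out of the total, also chosen after seeing the data, the H share exceeded the L share by 0.499 percentage points (exact permutation p = 0.00216, the smallest that 6 against 6 can give). These markers were high in every treated H library and low in every treated L library. Taking them out could therefore only widen the difference, and no conclusion is drawn from it. KA_H replicate 2 moved from 0.512 to 0.532%, just above the highest L value of 0.525%. In the untreated group the library with the highest ferritin share, replicate 1, had the highest microglia marker sum (36307 TPM) and the lowest choroid plexus sum (139 TPM) of the 3.

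The ratio of Fth1 to Ftl1 TPM was 1.24, 1.37 and 1.38 in APOE_H, 1.33, 0.97 and 1.39 in APOE_L libraries, 1.11, 1.16 and 1.02 in KA_H, 1.09, 1.13 and 1.7 in KA_L libraries, and 1.04, 1.14 and 1.22 in CTRL_L. Only APOE_L replicate 2 was below parity. On the log2 scale H minus L was -0.0514 (exact two-sided permutation test, p = 0.721). APOE_H lay above KA_H without overlap, by 0.281 on the log2 scale, with an exact permutation p of 0.1, the smallest this design allows.

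**Figure D3:**
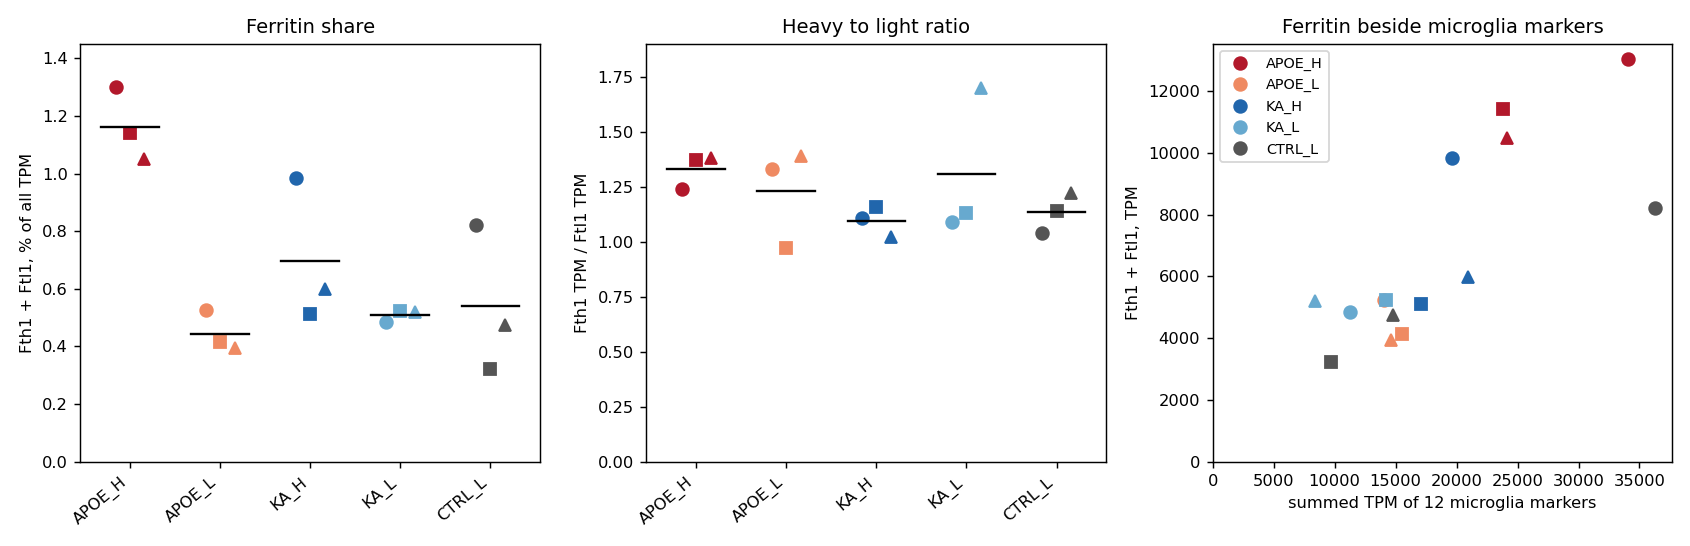
Left, Fth1 plus Ftl1 as a percent of all TPM; middle, the ratio of Fth1 to Ftl1 TPM; both by library with bars at the mean of 3. Right, summed ferritin TPM against the summed TPM of 12 microglia markers, coloured by group; circle, square and triangle are replicates 1, 2 and 3. APOE_H has the highest ferritin shares (1.05 to 1.3%), and its libraries also lie to the right for microglia markers, where CTRL_L replicate 1 (36307 TPM) lies as well.

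Copies of the ferritin genes could take some of their reads. Of 15 ferritin pseudogenes and second copies in the table, 11 were at 0 in every library. Ftl1-ps1 ran from 9.65 to 47.8 TPM, Ftl2-ps from 6.25 to 77.81 TPM and Fth-ps2 from 0 to 54.83 TPM, the last value in KA_L replicate 3, which also had the highest heavy to light ratio. These 3 copies passed the filter and were tested, and none of them was called in any comparison. Gm47428, annotated antisense to Ftl1-ps1, ran from 37.48 to 165.12 TPM. The strand setting of the counting is not given in the sources used here, so reads of a gene and of its antisense partner cannot be told apart. Likewise Gm10252 lies opposite Ftl1 (0.45 to 15.84 TPM) and Gm5475 opposite Slc11a2 (0 to 0.77 TPM).

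Slc40a1, the exporter, differed widely among the libraries of a group and was called in no comparison. It had 65.21, 24.59 and 19.91 TPM in APOE_H, 44.56, 68.23 and 7.47 TPM in APOE_L, 20.19, 12 and 16.31 TPM in KA_H, 6.5, 22.97 and 3.32 TPM in KA_L, and 60.24, 20.06 and 16.3 TPM in CTRL_L. All neighbouring groups in the order of their means overlapped, with APOE_L highest at 40.1 ± 30.6 and KA_L lowest at 10.9 ± 10.5 TPM (SD, n = 3 each). The difference between APOE_H and APOE_L was 0.14 on the log2 scale, with an interval of -2.05 to 2.32 (limma adjusted p = 0.965), and its sign turned to -0.03 under upper-quartile scaling. Between APOE and KA averaged over both letters it was 1.33 (SE 0.73, limma adjusted p = 0.67).

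Slc11a2, the ferrous iron carrier, had 19.3, 32.54 and 150.18 TPM in APOE_H, 4.21, 0.6 and 0.06 TPM in APOE_L, 24.72, 25.99 and 2.95 TPM in KA_H, 0.46, 0 and 0.15 TPM in KA_L, and 2.06, 0.22 and 0 TPM in CTRL_L. The H libraries lay above the L libraries of the same condition in both APOE and KA, and APOE_H replicate 3 lay far above the other APOE_H libraries. Slc11a2 reached 1 TPM in 8 libraries, which were the H libraries and replicate 1 of APOE_L and of CTRL_L. It thus passed the filter only through the H libraries, and its calls set them against values mostly near 0. It rose in APOE_H relative to APOE_L by a log2 fold change of 4.5 (SE 1.18, 95% interval 2.01 to 6.99, adjusted p = 0.0319) and in H relative to L averaged by 4.03 (SE 0.83, adjusted p = 0.00643). The first call was lost without any 1 of APOE_H replicates 1, 2 and 3 and APOE_L replicates 2 and 3 (adjusted p = 0.0524 to 0.15), with a pseudocount of 0.1 (adjusted p = 0.0597) and with no filter (adjusted p = 0.0538). Between KA_H and KA_L it was 3.56 (SE 1.18, adjusted p = 0.161), and KA_H set against CTRL_L gave 3.17 (SE 1.18, adjusted p = 0.345). The choroid plexus sum and the endothelial sum, whose highest values were mostly Bsg, were also higher in the same H libraries. In CTRL_L the choroid plexus sum was 139, 39298 and 24089 TPM in replicates 1, 2 and 3. Slc11a2 had 2.06, 0.22 and 0 TPM there. The part of these marker sums in the difference was not tested.

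Slc11a1, the phagosomal carrier, had 158.6, 75.6 and 179.45 TPM in APOE_H, 41.41, 12.46 and 30.06 TPM in APOE_L, 78.12, 29.88 and 64.05 TPM in KA_H, 98.94, 34.44 and 57.23 TPM in KA_L, and 67.82, 29.68 and 52.33 TPM in CTRL_L. APOE_H lay above APOE_L and above CTRL_L without overlap. Means were 138 ± 54.9 in APOE_H, 28 ± 14.6 in APOE_L, 57.4 ± 24.8 in KA_H, 63.5 ± 32.7 in KA_L and 49.9 ± 19.2 in CTRL_L (SD, n = 3 each). By level the order ran APOE_H, KA_L, KA_H, CTRL_L and APOE_L, and neighbours overlapped. The log2 fold change between APOE_H and APOE_L was 2.32 (SE 0.76, limma adjusted p = 0.0835), and for H and L averaged it was 1.1 (SE 0.54, limma adjusted p = 0.209), neither past the threshold.

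Tfrc, the transferrin receptor, was near the floor. It was listed at 0 in 7 libraries and reached 1 TPM in 4, with 6.44, 0 and 3.63 TPM in APOE_H, 0, 0.09 and 4.27 TPM in APOE_L, 0, 1.98 and 0.08 TPM in KA_H, 0.48, 0 and 0 TPM in KA_L, and 0, 0.04 and 0 TPM in CTRL_L. Every group overlapped every other one. The difference between APOE_H and APOE_L was 0.86 (SE 0.82, limma adjusted p = 0.574).

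Ireb2, the iron regulatory protein that is itself degraded when iron is plentiful, had 13.96, 25.1 and 7.18 TPM in APOE_H, 134.05, 1.48 and 107.15 TPM in APOE_L, 16.03, 19 and 6.92 TPM in KA_H, 21.4, 18.53 and 1.22 TPM in KA_L, and 31.97, 57.03 and 144.43 TPM in CTRL_L. The values of APOE_H, KA_H and KA_L all lay below those of CTRL_L, whereas APOE_L spanned from 1.48 to 134.05 TPM. How many of all entries separate in this way was not counted, here or for the other genes. Over all entries 11.1% had an unadjusted limma p under 0.05 for KA_L with CTRL_L and 10.5% for KA_H with CTRL_L. Averages were 15.4 ± 9.05 in APOE_H, 80.9 ± 70.1 in APOE_L, 14 ± 6.29 in KA_H, 13.7 ± 10.9 in KA_L and 77.8 ± 59 in CTRL_L (SD, n = 3 each). APOE_H was not tested directly against CTRL_L, and the other contrasts did not pass: KA_L set against CTRL_L gave -2.72 (SE 1.38, unadjusted p = 0.0647, limma adjusted p = 0.493) and KA_H set against CTRL_L gave -2.23 (limma adjusted p = 0.624).

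Aco1, the cytosolic aconitase that becomes an iron regulatory protein when it loses its iron-sulphur cluster, was listed at 0 in 4 libraries and reached 1 TPM in 8. It had 7.62, 0 and 1.35 TPM in APOE_H, 0.02, 4.31 and 0 TPM in APOE_L, 11.32, 0.31 and 13.69 TPM in KA_H, 9.82, 5.09 and 0 TPM in KA_L, and 0.56, 0 and 4.9 TPM in CTRL_L. The groups overlapped throughout, and the difference between APOE_H and APOE_L was 0.63 (SE 1.31, limma adjusted p = 0.819).

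The genes most like each of the 8 over the 15 libraries were ranked by Pearson correlation of log2(TPM + 1), as a description. The libraries share marker content as well as conditions. For Ftl1 these were Gm47428 (r = 0.958), Cyba (0.931), a subunit of the phagocyte oxidase, and Ctsa (0.927), a lysosomal protease. For Fth1 they were Gm47428 (0.913), the microglia marker Fcrls (0.91) and Ctsa (0.9). Slc11a1 was closest to Metap2 (0.874), Gnb2 (0.863) and Wbp1 (0.834), and Slc11a2 to Fuz (0.957), Epn3 (0.937) and Sorbs3 (0.935). Slc40a1 was closest to Wdr45b (0.852), Trmt1 (0.83) and Gm35611 (0.824), Tfrc to Rcc1l (0.932), Ficd (0.93) and Taf6l (0.919), Ireb2 to Gm9806 (0.926), Pip4p2 (0.815) and Orc6 (0.809), and Aco1 to Zxdb (0.82), Alg11 (0.809) and Smarce1 (0.804). Among the 8 genes the closest pair was Fth1 with Ftl1 (0.94), followed by Fth1 with Slc11a1 (0.79) and with Slc11a2 (0.78).

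The other genes of iron handling were counted in 6 lists of 83 symbols, of which 67 were tested, 14 were under the filter and 2 were not matched. For H and L averaged, 17 of the 67 rose, none fell and 50 did not pass, with a median log2 fold change of 1.87 beside 0.32 over all entries. The 17 called are 25.4% of the tested list, beside the 10.2% of all entries. Among them Bmp6, Cp, Steap1, Steap2, Slc48a1, Flvcr2 and Nqo1 passed the filter only through the H libraries, where they were high. The shares of the lists, here and below, are therefore no test of the lists, and no conclusion is drawn from them. Of the 17, 10 stayed called whichever of the 12 libraries was left out, and 7 did not, among them Cisd1, Steap2, Uros, Hmox1, Flvcr2 and Fdx1. Between APOE_H and APOE_L, 12 rose and 1 fell, 19.4% of the tested list beside 6.15% of all entries (median 2.48 beside 0.54), of which Steap1, Slc22a17, Trf, Bmp6 and Gpx4 stayed called whichever of the 6 libraries was left out. The count of 13 was 6, 7 and 5 without APOE_H replicates 1, 2 and 3, and 6 and 7 without APOE_L replicates 1 and 2. Between KA_H and KA_L, 4 rose (Steap1, Slc48a1, Gpx4 and Nqo1), 5.97% of the tested list beside 1.49% of all entries. Between KA_L and CTRL_L only Gpx4 fell, 1.49% of the tested list beside 0.571% of all entries. The KA_H count of 4 was 0 without KA_H replicate 1, KA_H replicate 3 or KA_L replicate 3, and 1 without KA_H replicate 2 or KA_L replicate 1. No gene of the lists was called by limma between KA_H and CTRL_L (5 of the 67 under 0.05 unadjusted), APOE_L and KA_L (9), APOE_H and KA_H (9), APOE and KA averaged (12), or in the interaction (6). Over all entries the shares under 0.05 unadjusted were 10.5, 7.84, 8.63, 8.23 and 8.32%, in the same order.

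In the iron sensing list 2 of 8 rose in H relative to L averaged. One was Cisd1, an iron-sulphur protein of the outer mitochondrial membrane, with a log2 fold change of 3.99 (limma adjusted p = 0.0318). It had 88.85, 168.05 and 201.24 TPM in APOE_H, 0, 0 and 25.55 TPM in APOE_L, 166.11, 56.49 and 70.11 TPM in KA_H, 0, 20.71 and 221.69 TPM in KA_L, and 44.63, 163.35 and 30.14 TPM in CTRL_L. The H and L libraries overlapped in KA and not in APOE.

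Among other importers and reductases 3 of 11 rose: Steap1, Steap2 and Slc22a17. Steap1, of a family of metal reductases, was listed at 0 in all APOE_L and KA_L libraries and ran from 152.65 to 278.28 TPM in APOE_H and 54.9 to 144.44 TPM in KA_H, so no fold is given (limma adjusted p = 0.000326 for H and L averaged). It was also at 150.55 and 33.95 TPM in replicates 2 and 3 of CTRL_L and at 0 in replicate 1. That is the order of the choroid plexus markers in the same 3 libraries, and their part in the values of Steap1 was not tested. Slc22a17, a receptor for lipocalin-2, rose with a log2 fold change of 4.73 (limma adjusted p = 0.000517).

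Of 5 systemic carriers and hormones tested, 3 rose. Trf, the plasma iron carrier transferrin, which oligodendrocytes and choroid plexus also make, averaged 1320 ± 225 TPM in APOE_H, 191 ± 68.3 in APOE_L, 321 ± 169 in KA_H, 166 ± 60.8 in KA_L and 274 ± 74.3 in CTRL_L (SD, n = 3 each). Its log2 fold change for H and L averaged was 1.85 (limma adjusted p = 0.00399), and between APOE_H and APOE_L it was 2.83 (limma adjusted p = 0.00554). Bmp6, an inducer of hepcidin in the liver, had 7.59, 11.97 and 9.1 TPM in APOE_H and 0.01, 0 and 0 TPM in APOE_L. It had 0.26, 0.87 and 2.53 TPM in KA_H and 0 throughout in KA_L and CTRL_L. Bmp6 thus passed the filter through APOE_H, and its calls set H libraries against values at or near 0. Cp, the ferroxidase ceruloplasmin, had 17.66, 12.37 and 5.2 TPM in APOE_H, 0, 0.12 and 0 TPM in APOE_L, and 0, 38.96 and 13.11 TPM in KA_H, with KA_L at 0 throughout. It was called for H and L averaged only, and not with no filter on low values (limma adjusted p = 0.0648).

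In the heme list 5 of 17 rose in H relative to L averaged, among them Uros of heme synthesis, the transporters Slc48a1 and Flvcr2, and Hmox1, which breaks heme down and releases its iron. Slc48a1, which carries heme out of lysosomes, had 64.57, 48.92 and 84.4 TPM in APOE_H, 1.08, 0.08 and 2.96 in APOE_L libraries, 40.01, 38.67 and 7.88 in KA_H, and 0, 0 and 0.1 in KA_L libraries. It was at 0 in every CTRL_L library, including replicates 2 and 3 with choroid plexus sums of 39298 and 24089 TPM. Hmox1 had 62.3, 49.42 and 31.05 TPM in APOE_H, 0, 0 and 0.91 in APOE_L libraries, 12.66, 8.05 and 24.76 in KA_H and 12.75, 3.36 and 21.14 in KA_L libraries, so that its H and L libraries overlapped in KA and not in APOE. Flvcr1, a heme and choline transporter, fell in APOE_H (5.39, 0 and 0 TPM) relative to APOE_L (29.5, 622.7 and 29.9 TPM; limma adjusted p = 0.0451). That call was lost without any 1 of the 6 libraries (limma adjusted p = 0.057 to 0.177). Blvrb, which acts on the breakdown products of heme, had 57.46, 59.27 and 52.77 TPM in APOE_H, 1.71, 0.22 and 0.07 TPM in APOE_L, 20.85, 32.55 and 34.91 TPM in KA_H, and 208.44, 48.06 and 86.3 TPM in KA_L, so that H lay above L in APOE and below it in KA. It was called between APOE_H and APOE_L (limma adjusted p = 0.0343) and not for H and L averaged. The call was lost without any 1 of the 6 libraries (limma adjusted p = 0.0625 to 0.103), with a pseudocount of 0.1 (0.0556) and with no filter (0.108). Red blood cell markers, whose cells carry heme, summed to 43.7 to 749 TPM in APOE_H, 0.1 to 7386 TPM in APOE_L, 384 to 4092 TPM in KA_H, 81 to 156 TPM in KA_L and 0.1 to 126 TPM in CTRL_L, and their part in these differences was not tested.

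Of 13 genes of iron-sulphur cluster assembly, Isca1 and Fdx1 rose in H relative to L averaged (3.81 and 3.75, limma adjusted p = 0.00944 and 0.0307). For Fdx1, KA_L replicate 2 (30.66 TPM) lay above KA_H replicates 1 and 2 (26.92 and 25.3 TPM). Of 13 genes of lipid peroxidation and ferroptosis, Gpx4 and Nqo1 rose. Nqo1 had 16.01, 39.87 and 73.44 TPM in APOE_H and 75.94, 34.58 and 83.75 TPM in KA_H. It was at 0 throughout in APOE_L and at 0, 0 and 0.04 TPM in KA_L. In CTRL_L it had 0.09, 101.19 and 54.47 TPM. Gpx4, which reduces lipid peroxides, averaged 1152 ± 238 TPM in APOE_H, 188 ± 82 in APOE_L, 701 ± 210 in KA_H, 125 ± 81.5 in KA_L and 552 ± 104 in CTRL_L (SD, n = 3 each). It rose in H relative to L averaged by 2.66 (limma adjusted p = 0.000314), and in KA_L relative to CTRL_L it fell by 2.32 on the log2 scale (SE 0.5, limma adjusted p = 0.0482). The call was lost without CTRL_L replicate 2 or 3 or KA_L replicate 2 or 3 (limma adjusted p = 0.0919 to 0.115). It was also lost with upper-quartile scaling (limma adjusted p = 0.105), with no filter on low values (0.14) and with only the groups compared (0.396).

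**Figure D4:**
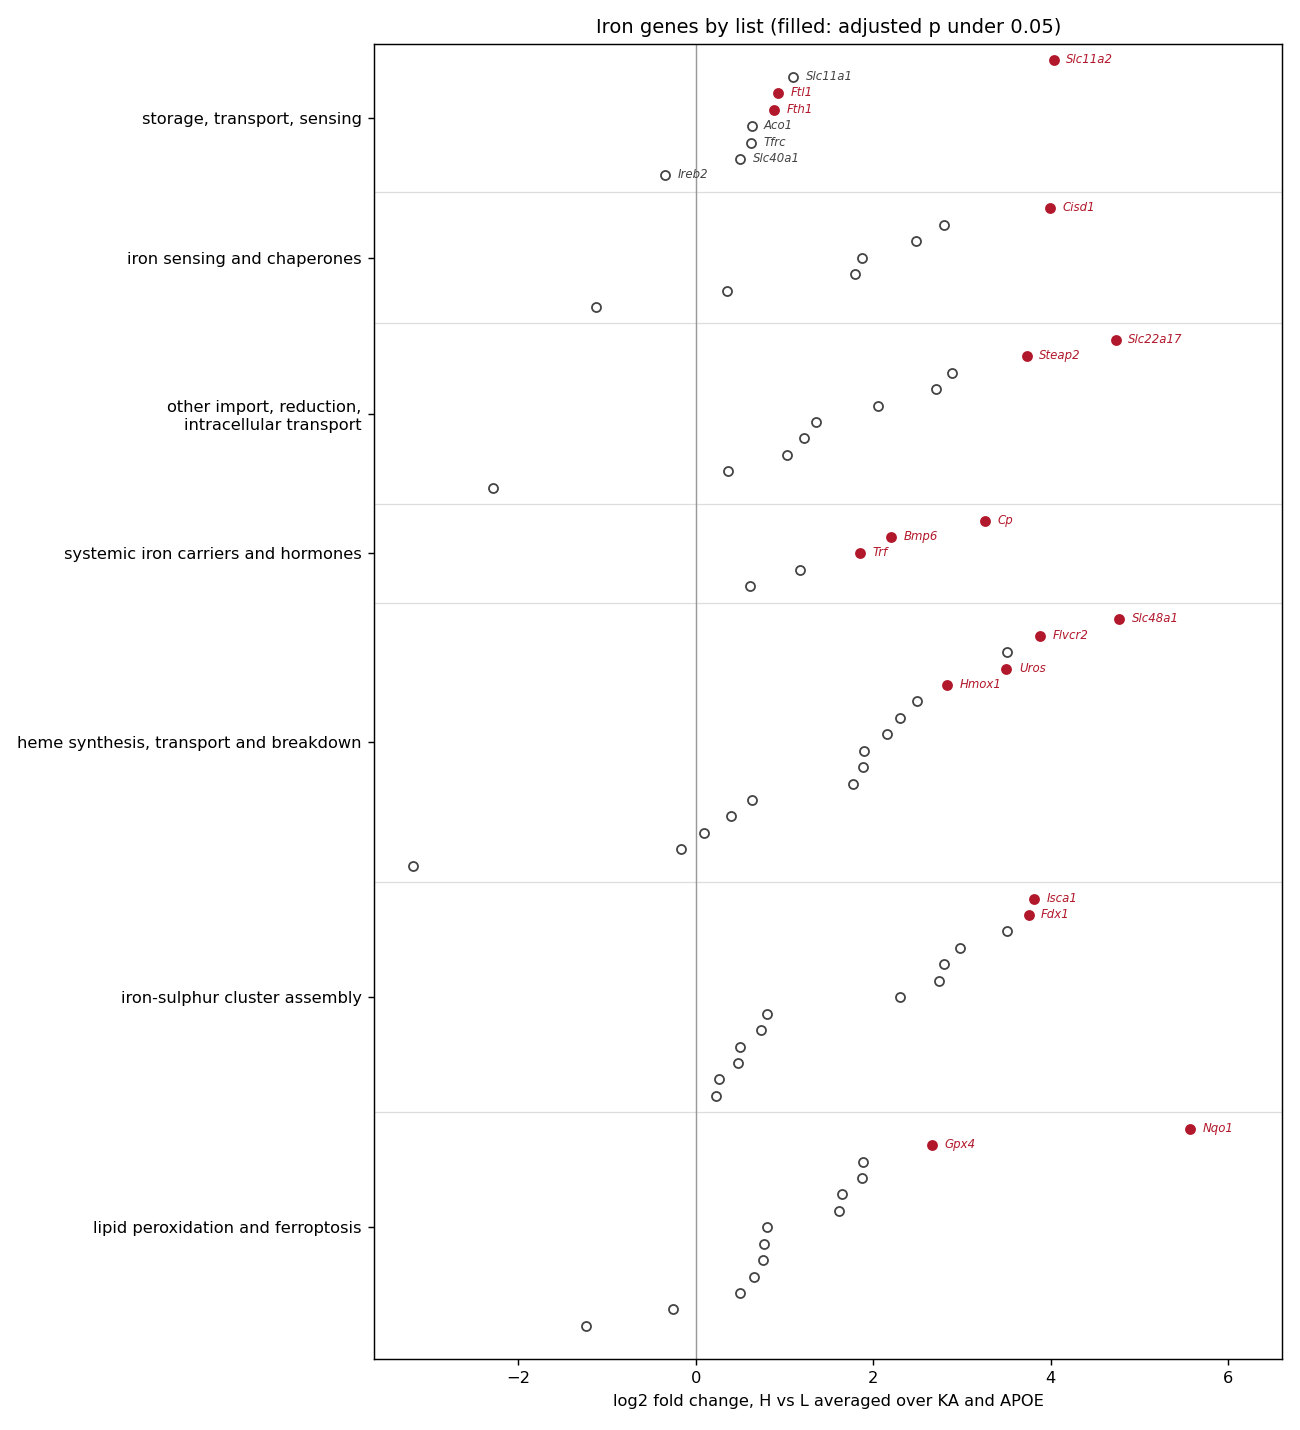
Log2 fold change of H relative to L, averaged over KA and APOE, on the log2(TPM + 1) scale, for the 8 genes (top) and tested genes of the 6 other iron lists, sorted within a list, with filled points for adjusted p under 0.05. Steap1 is not drawn because all its L libraries were listed at 0. All filled points of the lists below the 8 genes lie to the right of 0.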

How the data were processed

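The values were deposited by the authors as TPM, already scaled for transcript length and library size, in 1 table of 15 libraries from mouse brain. Alignment used STAR and the build was GRCh38 (human), per the submitters' processing notes, while the identifiers are mouse Ensembl genes; the quantifier and strand setting are not given in the sources used here. Symbols came from GENCODE M21 by identifier (52083 matched). Hairpin sequences and coordinates came from its transcripts and annotation (GRCm38); the table carries no coordinates.

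Libraries were grouped by their titles. Tests used limma 3.58.1 in R 4.3.3 on log2(TPM + 1), with all 15 libraries in 1 fit (10 residual degrees of freedom), a filter that kept entries reaching 1 TPM in 3 libraries or more, and Benjamini-Hochberg adjustment within each of 9 comparisons. Ferritin shares and ratios were compared by exact two-sided permutation (scipy 1.17.1). The fit was tested on simulated data in which the changed entries were abundant and varied little, so genes near 0 were not covered. Genes of the other lists are named where they were called, except 2 that are not reported here; for each of the 8 genes the 3 most correlated entries are named. The 8 genes, lists and tests were chosen with earlier results of these data known. Alternatives were another pseudocount, filter and scaling, only the groups compared, a replicate block and each library left out. A value listed at 0 can be a failed estimate, so several such genes are given per library. Steap2, Flvcr2, Uros and Fdx1 also had L libraries at 0 and are named without all their values.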

Additional observations from a re-analysis of the deposited data

How the results depend on the processing

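Of the 8 genes, 3 were called between APOE_H and APOE_L and 3 for H and L averaged. With no filter on low values, which tests more entries, the counts were 0 and 1. With each library left out in turn the first count was 1 to 3 and the second stayed at 3. No result changed direction past the threshold under any alternative run. The other iron genes called for H and L averaged (17) numbered 9 with no filter and 11 without KA_H replicate 3; those between APOE_H and APOE_L (13) numbered 8 with no filter, 24 with only the groups compared, and 6, 7 and 5 without APOE_H replicates 1, 2 and 3; those between KA_H and KA_L (4) fell to 0 without KA_H replicate 1 or 3 or KA_L replicate 3. Over all entries, the calls across alternatives were 308 to 2233 between APOE_H and APOE_L (1076 as reported), 1048 to 2190 for H and L averaged (1782), 10 to 393 between KA_H and KA_L (260), 0 to 229 between KA_L and CTRL_L (100), 6 to 136 between KA_H and CTRL_L (66), 2 to 106 between APOE_H and KA_H (93), 1 to 69 between APOE_L and KA_L (8), 2 to 16 between APOE and KA averaged (3) and 0 to 24 in the interaction (8). Upper-quartile scaling moved the median log2 fold change of all entries from 0.54 to 0.44 between APOE_H and APOE_L, from 0.1 to 0.47 between KA_H and CTRL_L, from 0.11 to 0.32 between KA_H and KA_L, from 0.25 to 0.01 between APOE_H and KA_H and from 0.38 to 0.06 in the interaction, and left Fth1, Ftl1 and Slc11a2 called. Between APOE_H and KA_H it moved the share of calls that were higher from 67.7 to 53.1%, between APOE and KA averaged (3 calls) from 66.7 to 33.3%, and between KA_L and CTRL_L from 30 to 41.9%.

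The ferritin share (H minus L, 0.454 percentage points) stayed at 0.38 to 0.538 with a library left out. With the replicate number as a block it was again 0.454, with an exact permutation p of 0.0625, no longer past the threshold, where the smallest possible is 0.03125. Per microglia marker TPM, a scale chosen after seeing the data, the difference was 0.00899, with 0.432 in APOE_H above 0.303 in APOE_L and 0.362 in KA_H below 0.473 in KA_L. Under the replicate block the 8 genes had 3 and 3 calls; same-numbered libraries of different groups correlated between -0.0263 and 0.0365 in their deviations, so the numbers were not taken as pairing, although 12 of 15 libraries correlated best with one of their own number, a hint from the data and not from the design. The block also ended the calls of Gpx4 between KA_L and CTRL_L (limma adjusted p = 0.0767), of Slc48a1 (0.0636) and Nqo1 (0.0557) between KA_H and KA_L, and of Hmox1 for H and L averaged (0.0658). The cause of these shifts was not tested.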
